A study of Mus musculus with 10 samples.

Results

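The replication-dependent histone genes were examined as targets of OTX2, a homeodomain transcription factor, in mouse epiblast stem cells (EpiSCs) and in definitive endoderm (DE). EpiSCs are pluripotent cells that resemble the epiblast of the embryo after implantation, and DE is the layer that gives rise to the lining of the gut. A gene was a member when its symbol began with Hist1h, Hist2h, Hist3h or Hist4h, or followed the newer names of the same genes, and when the authors had named it as the nearest gene of an OTX2 peak. This gave 46 genes of the 19974 named in either peak list, with 52 of 6319 peaks in the EpiSC list and 49 of 42711 peaks in the DE list. All 46 symbols were found in the RefSeq gene table, which holds 71 genes of the family by symbol or older name.

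Binding had been mapped by CUT&RUN, in which an antibody directs a nuclease to its target in permeabilised cells and the released DNA is sequenced. An anti-HA antibody was used on the tagged line 7H OTX2-dTAG-EGFP, with 2 HA samples of EpiSCs and 2 HA samples of DE. Whether the line is 1 clone is not given in the sources used here. The controls were IgG samples of the tagged line (3 of EpiSCs, 1 of DE) and, from the parental line 5.8, DE with anti-HA (1 sample) and with IgG (1 sample). All lines were of a BL6/129 hybrid strain, and each sample held 500000 cells. EpiSC medium contained Activin A at 20 ng/ml, FGF2 at 12.5 ng/ml and NVP at 175 nM. For DE, Activin A at 40 ng/ml with 3 µM CHIR was given for 16 h, then Activin A at 100 ng/ml with 100 nM LDN for 24 h, and live cells were sorted. The authors deposited 1 pooled HA peak list per state, without heights or depths, so there is no spread between replicates and no test between the states. The intervals given are 95% Wilson intervals. They cover only the error of counting and treat neighbouring peaks as independent, which they may not be. The lists hold no expression values, so the labelled cell types could not be checked against their markers.

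Replication-dependent histone genes encode the linker histone H1 and the core histones H2A, H2B, H3 and H4 that package newly made DNA in S phase. They are short and lie in clusters, often as head-to-head H2A and H2B genes that share a promoter region, and their mRNAs end in a stem-loop in place of a poly(A) tail. In the mouse the large cluster lies on chromosome 13 among many tRNA genes, with smaller ones on chromosomes 3 and 11. Copies of a histone gene share much of their coding sequence. How reads that match several copies were treated is not given in the sources used here.

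OTX2 peaks at histone genes were about as numerous in EpiSCs as in DE, although the DE list was 6.76 times as long. The ratio of DE to EpiSC peaks was 0.942 at histone genes. This holds for the lists as deposited: among the 6319 widest DE peaks, as many as the EpiSC list holds, were 6 of the 49 DE histone gene peaks (12.2%, against 14.8% of all DE peaks). They made up 0.823% of the EpiSC list (0.628 to 1.08%) and 0.115% of the DE list (0.0868 to 0.152%). Of the 46 genes, 32 were nearest to a peak in both lists, 6 in the EpiSC list only and 8 in the DE list only. Of the list-only genes, 2 in each list came from overlapping peaks that were named for different genes in the 2 lists. Over all 19974 named genes, 4688 were in both lists, 408 in the EpiSC list only and 14878 in the DE list only. The genes in both lists were thus 84.2% of the EpiSC and 80% of the DE histone genes, against 92% and 24% of all named genes. Counted over the 71 genes of the family, 38 were nearest to an EpiSC peak and 40 to a DE peak. Over all 21900 protein-coding genes, 16% were nearest to an EpiSC peak and 52.3% to a DE peak.

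In the lists as deposited, most histone gene peaks were present in both states. A peak was called shared when it overlapped a peak of the other list by at least 1 bp. In the DE list 37 of the 49 peaks were shared and 12 were DE-only (24.5%, 14.6 to 38.1%), against 88.3% DE-only in the whole DE list. In the EpiSC list 37 of the 52 peaks were shared and 15 were EpiSC-only (28.8%, 18.3 to 42.3%), against 21.2% in the whole EpiSC list. Against the 6319 widest DE peaks alone, 88.46% of the EpiSC histone gene peaks had no partner, as did 69.3% of the whole EpiSC list. With the full lists, the interval of the EpiSC share included the value of the whole list, while that of the DE share lay far below it. The narrowest peak was 78 bp in the EpiSC list and 62 bp in the DE list. Of the DE histone gene peaks at least 78 bp wide, 7 of 41 were DE-only (17.07%). The whole DE list was not recounted at that limit.

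**Figure D1:**
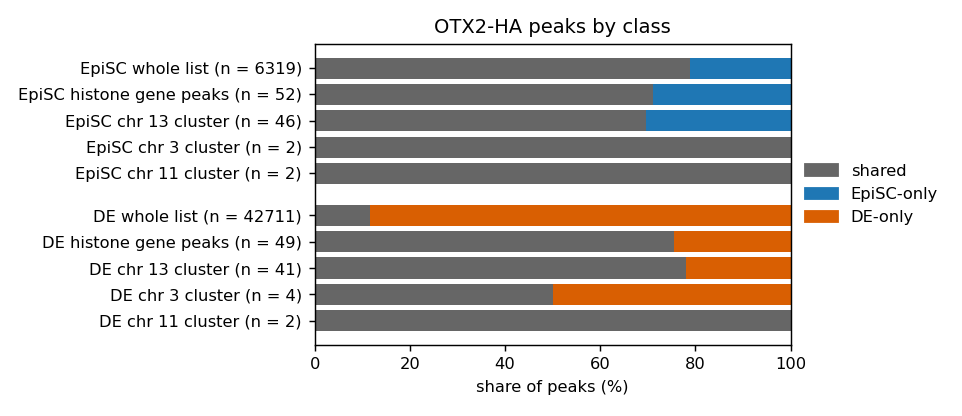
Share of peaks (%) that were shared, EpiSC-only or DE-only, for each whole list, all histone gene peaks and the clusters on chromosomes 13, 3 and 11, with the number of peaks in each bar's label. Of the DE histone gene peaks 24.5% were DE-only, against 88.3% of the whole DE list.

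By cluster, chromosome 13 held 46 EpiSC and 41 DE histone gene peaks. In its EpiSC list 14 were EpiSC-only (30.4%, 19.1 to 44.8%), and in its DE list 9 were DE-only (21.95%, 12.0 to 36.7%). The EpiSC interval includes the 21.2% of the whole EpiSC list, and the DE interval lies below the 88.3% of the whole DE list. On chromosome 3 both EpiSC peaks were shared, and 2 of 4 DE peaks were DE-only. On chromosome 11 the 2 EpiSC peaks and the 2 DE peaks were the same sites. The single gene Hist4h4 on chromosome 6 had 2 EpiSC peaks, of which 1 was shared with its only DE peak. The remaining DE peak, chr13:51274720-51274976 (257 bp), was assigned to the pseudogene Hist1h2al, lay 71653 bp from it and outside the cluster, and was DE-only.

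On chromosome 13 the genes fell into 4 blocks with gaps over 100 kb between them. Peaks were counted by the gene they were assigned to, and some lie outside the coordinates of the block. To the genes of the first block (19 genes, chr13:21715711-21837530) 9 EpiSC and 7 DE peaks were assigned, with 6 shared, so that 33.3% of the EpiSC and 14.3% of the DE peaks were without a partner. For the second (5 genes, chr13:22035122-22043658) there were 7 EpiSC peaks, of which 2 were EpiSC-only (28.6%), and 5 DE peaks, all shared. For the third (30 genes, chr13:23531044-23764412) there were 30 EpiSC and 29 DE peaks, with 21 shared, and 30% and 27.6% were without a partner. The shares of the whole lists, 21.2% and 88.3%, apply here too, and the EpiSC intervals of these 3 blocks include the first. No member peak was assigned to the fourth block (chr13:23933725-23934913), which holds Hist1h2ba and Hist1h2aa, an H2B and an H2A gene known from the testis.

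**Figure D2:**
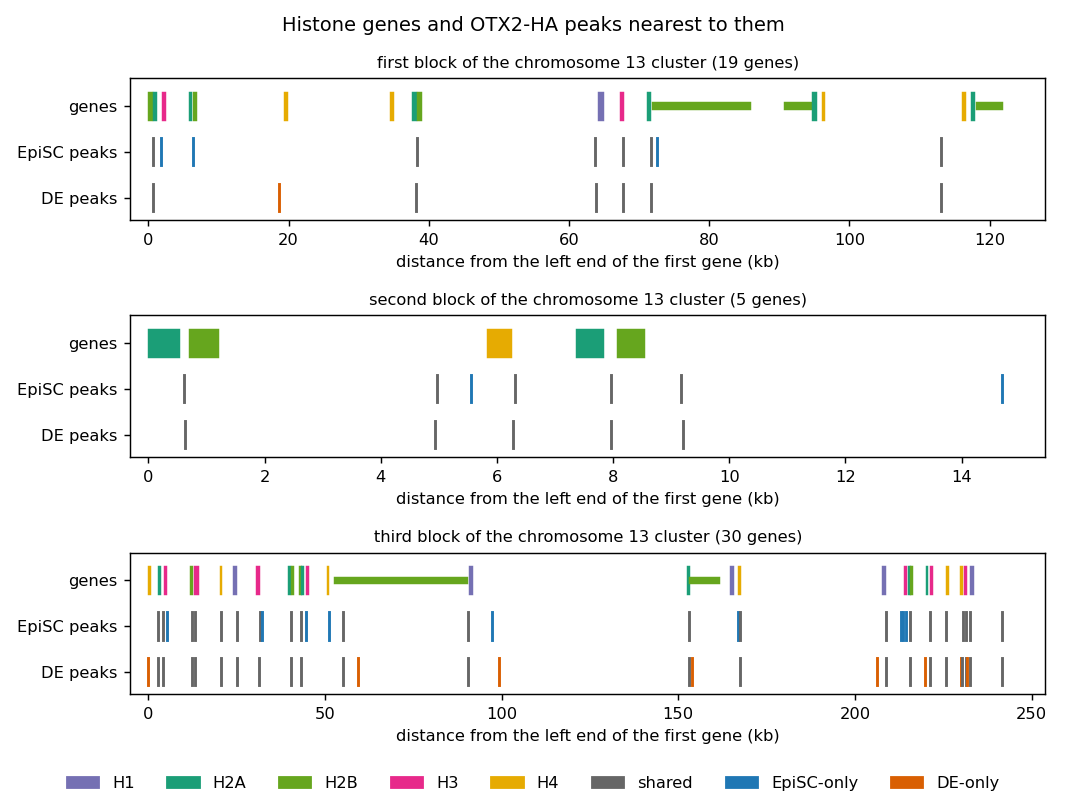
Histone genes (coloured by type, to scale, with genes over 2 kb as thin bars) and the OTX2 peaks nearest to them in the first 3 blocks of the chromosome 13 cluster, plotted in kb from the left end of each block's first gene. Vertical lines mark peak centres by class; in the second block all 5 DE peaks have an EpiSC partner.

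Peaks lay mainly at the starts of the genes. A promoter window was taken as 250 bases before to 50 after a gene's start, and 62 of the 71 genes had at least 1 in the RefSeq table. Some genes have several windows, and a gene was counted when a peak overlapped any of them. EpiSC peaks overlapped a window of 38 of these genes (61.3%, 48.9 to 72.4%), against 7.08% of all 27025 genes with a window. DE peaks overlapped a window of 37 (59.7%, 47.2 to 70.98%), against 20.3% of all genes. In both lists 33 of the genes had a peak in a window, 5 had an EpiSC peak alone, 4 a DE peak alone and 20 neither. For all genes these counts were 1838, 75, 3647 and 21465. Seen from the peaks, 30 of 52 EpiSC histone gene peaks (57.7%, 44.2 to 70.1%) overlapped a promoter window, against 26.6% of the EpiSC list. In DE 29 of 49 did (59.2%, 45.2 to 71.8%), against 11.7% of the DE list.

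The low share of DE-only peaks was also seen within promoter windows. Of the 29 DE histone gene peaks in a window, 4 were DE-only (13.8%, 5.497 to 30.6%), against 67.6% of 4986 other DE peaks in a window (66.3 to 68.9%). Of the 30 EpiSC peaks in a window, 5 were EpiSC-only (16.7%, 7.34 to 33.6%), against 3.63% of 1651 others (2.83 to 4.65%). Away from promoter windows, 8 of 20 DE histone gene peaks had no partner (40%, 21.9 to 61.3%), against 91.1% of the DE list, and 10 of 22 EpiSC ones (45.5%, 26.9 to 65.3%), against 27.5% of the EpiSC list.

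**Figure D3:**
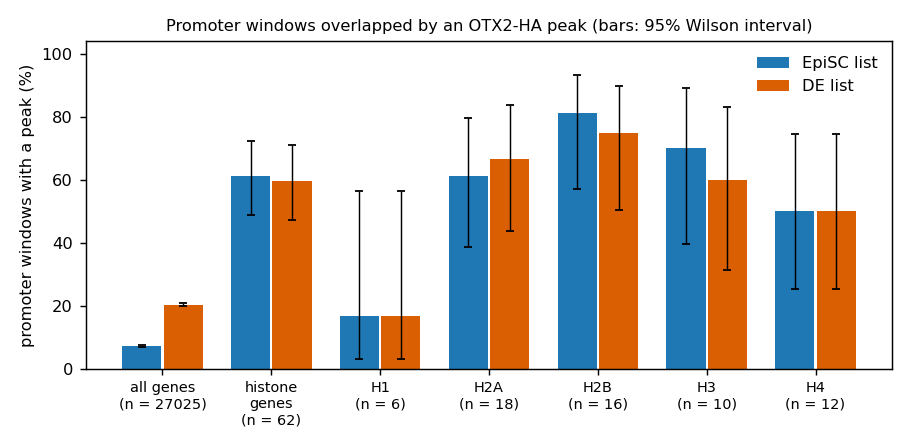
Percent of genes with a promoter window overlapped by an EpiSC or a DE peak, for all genes, all histone genes with a window and each histone type, with 95% Wilson intervals as error bars and the number of genes under each pair. A peak over the windows of 2 genes counts for both. Among the histone types H2B has the highest bars (81.2% and 75%) and H1 the lowest (16.7% in both lists), with wide intervals, and all genes stand at 7.08% and 20.3%.

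H2A and H2B genes, whose products form the dimers of the nucleosome core, carried many of the promoter peaks. Of 16 H2B genes with a window, 13 had an EpiSC peak and 12 a DE peak there, and of 18 H2A genes 11 and 12, against 7.08% and 20.3% of all genes. There were 10 head-to-head pairs of H2A and H2B genes with both windows in the table, all on chromosome 13, with start sites 163 to 280 bp apart (median 203.5 bp). At 7 of them the space between the start sites carried 1 EpiSC peak and 1 DE peak, which overlapped each other and, at several pairs, reached past a start site. Each of these peaks overlaps both windows and counts for both genes, so the H2A and H2B counts are not independent. The intervals for promoter windows treat them as if they were.

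Between Hist1h2bl and Hist1h2ai the EpiSC peak was chr13:21716193-21716407 (215 bp) and the DE peak chr13:21716257-21716361 (105 bp). Between Hist1h2ak and Hist1h2bn they were chr13:21753856-21754113 (258 bp) and chr13:21753839-21754049 (211 bp). The pair Hist1h2an and Hist1h2bp had chr13:21787340-21787529 (190 bp) in EpiSCs and chr13:21787272-21787560 (289 bp) in DE. These 3 pairs are in the first block. In the second block, Hist1h2ah and Hist1h2bk shared chr13:22035606-22035873 (268 bp) and chr13:22035619-22035869 (251 bp). There, Hist1h2ag and Hist1h2bj had chr13:22042934-22043235 (302 bp) and chr13:22042934-22043227 (294 bp), which begin at the same base. In the third block, peaks of 214 bp (chr13:23571188-23571401) and 319 bp (chr13:23571141-23571459) lay between Hist1h2ae and Hist1h2bg. Between Hist1h2bf and Hist1h2ad lay peaks of 226 bp (chr13:23574240-23574465) and 236 bp (chr13:23574177-23574412), which the authors' table gives to Hist1h2ad in EpiSCs and to Hist1h2bf in DE. The pairs without a peak in either list were Hist1h2bq with Hist1h2ao, Hist1h2ap with Hist1h2br, and Hist1h2ba with Hist1h2aa.

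The widest histone gene peak of both lists was assigned to Hist1h2be, chr13:23621129-23621712 (584 bp) in EpiSCs and chr13:23621085-23621768 (684 bp) in DE. It lay between the start of that long gene model (chr13:23583670-23621124, minus strand) and Hist1h1e. Hist1h2be has another promoter window in the table, far from this peak. Hist1h2bc, which lies beside Hist1h2ac, came next in DE with chr13:23683908-23684277 (370 bp), over an EpiSC peak of 290 bp (chr13:23683924-23684213), and had a second, DE-only peak of 108 bp (chr13:23684817-23684924). At Hist1h2bb the widths were 300 bp (chr13:23746544-23746843) and 321 bp (chr13:23746529-23746849), and at Hist1h2bh 233 bp (chr13:23543380-23543612) and 171 bp (chr13:23543442-23543612). Hist1h2af had 174 bp (chr13:23533699-23533872) and 83 bp (chr13:23533790-23533872), ending at the same base. On chromosome 11, Hist3h2ba had chr11:58948715-58948882 (168 bp) and chr11:58948700-58948866 (167 bp). The peaks assigned to the pseudogene Hist3h2bb-ps, chr11:58954529-58954653 (125 bp) and chr11:58954523-58954653 (131 bp), lay in the promoter window of Hist3h2a.

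In EpiSCs 3 of 15 H2B peaks (20%, 7.05 to 45.2%) and 0 of 3 H2A peaks lacked a partner, against 21.2% of the whole list. In DE 1 of 13 H2B peaks (7.69%, 1.37 to 33.3%) and 2 of 5 H2A peaks (40%, 11.8 to 76.9%) did, against 88.3%. EpiSC-only were Hist1h2bm at its start (chr13:21721879-21722134, 256 bp), a second site at Hist1h2bp (chr13:21788279-21788370, 92 bp) and a site 6109 bp from Hist1h2bj (chr13:22049768-22049881, 114 bp). Hist1h2bj also had a shared site beyond its 3′ end, 146 bp in EpiSCs (chr13:22044222-22044367) and 85 bp in DE (chr13:22044291-22044375). Hist1h2ab had only a DE peak, of 70 bp (chr13:23750972-23751041), in its promoter window. Hist2h2ab and Hist2h2bb on chromosome 3 had promoter peaks in both lists which the authors' table gives to Bola1 and Gm42743, so that they are not counted among the member peaks.

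H3 genes, which encode a core histone whose tail carries many chromatin marks, had the most EpiSC-only peaks of any type. Of 13 EpiSC peaks at H3 genes, 7 were EpiSC-only (53.8%, 29.1 to 76.8%), and of 9 DE peaks 3 were DE-only (33.3%, 12.1 to 64.6%), against 21.2% and 88.3% of the whole lists. These intervals overlap those of the other types. Hist1h3c had 3 EpiSC peaks and no DE peak: chr13:23745572-23745694 (123 bp) at its promoter, and chr13:23744412-23744688 (277 bp) and chr13:23744158-23744254 (97 bp) beyond its 3′ end. Promoter peaks at Hist1h3h (chr13:21717485-21717654, 170 bp) and Hist1h3d (chr13:23575609-23575797, 189 bp) were also EpiSC-only. So were a peak of 102 bp beyond Hist1h3g (chr13:23536308-23536409) and one of 132 bp before Hist1h3e (chr13:23563272-23563403).

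The shared H3 sites lay mostly at promoters. Hist1h3e had 220 bp in EpiSCs (chr13:23562434-23562653) and 227 bp in DE (chr13:23562367-23562593), and Hist1h3b 207 bp (chr13:23752174-23752380) and 133 bp (chr13:23752248-23752380). Hist1h3g had 177 bp (chr13:23535216-23535392) and 107 bp (chr13:23535199-23535305), and Hist1h3i 117 bp (chr13:21783396-21783512) and 106 bp (chr13:21783386-21783491). Hist1h3f and Hist1h3a have no promoter window in the table. At Hist1h3f the peaks were 166 bp (chr13:23544289-23544454) and 177 bp (chr13:23544289-23544465), and at Hist1h3a 127 bp (chr13:23762343-23762469) and 185 bp (chr13:23762355-23762539). DE-only H3 peaks were narrow: 63 bp at Hist1h3a (chr13:23762713-23762775), 80 bp at Hist2h3b (chr3:96268570-96268649) and 62 bp near Hist2h3c1 (chr3:96249601-96249662). Those at Hist1h3a and near Hist2h3c1 were narrower than any peak of the EpiSC list, whose narrowest was 78 bp. The promoter of Hist2h3c1 carried another DE-only peak of 76 bp (chr3:96246641-96246716), given to Gm20634 in the authors' table.

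H4 genes, which encode the partner of H3 in the nucleosome core, had 15 peaks in each list, with 11 shared. In both lists 26.7% were without a partner (10.9 to 51.95%), near the 21.2% of the whole EpiSC list and below the 88.3% of the whole DE list. Several of them had a site at the promoter and another near the end of the short gene. Hist1h4i had a shared promoter peak, 161 bp in EpiSCs (chr13:22041350-22041510) and 70 bp in DE (chr13:22041373-22041442), and a shared peak beyond its 3′ end, 230 bp (chr13:22039972-22040201) and 174 bp (chr13:22039972-22040145). Next to the latter lay an EpiSC-only peak of 535 bp (chr13:22040417-22040951), 8 bp past the end of the gene and the widest histone gene peak without a partner. Hist2h4 on chromosome 3 has no promoter window in the table. Outside the gene it had 274 bp in EpiSCs (chr3:96262308-96262581) and 118 bp in DE (chr3:96262308-96262425), and over the gene the same interval in both lists, chr3:96263274-96263455 (182 bp). Hist4h4 had 79 bp (chr6:136803835-136803913) and 105 bp (chr6:136803819-136803923) beyond its 3′ end, while its promoter peak of 162 bp (chr6:136804407-136804568) was EpiSC-only. At Hist1h4c the promoter peak was shared, 90 bp (chr13:23698551-23698640) and 144 bp (chr13:23698520-23698663), and the peak beyond the 3′ end was EpiSC-only, 96 bp (chr13:23697836-23697931).

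Other H4 sites differed in width or distance. Hist1h4a had an EpiSC peak of 400 bp (chr13:23761314-23761713), over a DE peak of 123 bp (chr13:23761419-23761541), and a DE-only peak of 63 bp (chr13:23761179-23761241). Hist1h4b had 97 bp (chr13:23756864-23756960) and 64 bp (chr13:23756864-23756927), and Hist1h4f 84 bp (chr13:23551650-23551733) and 133 bp (chr13:23551622-23551754), all at the promoter. The peaks of Hist1h4n, 142 bp (chr13:21828665-21828806) and 156 bp (chr13:21828682-21828837), lay 2985 and 2954 bp from the gene. Hist1h4d had a shared site 3945 bp away in EpiSCs (chr13:23585915-23586192, 278 bp) and 3968 bp away in DE (chr13:23585938-23586137, 200 bp). That site lay over another promoter window that the table lists for Hist1h2be. Hist1h4d also had an EpiSC-only peak of 102 bp (chr13:23582252-23582353) and a DE-only peak of 128 bp (chr13:23590402-23590529), 8432 bp from the gene. Hist1h4h (chr13:23530991-23531106, 116 bp) and Hist1h4j (chr13:21734272-21734333, 62 bp) had a DE-only peak alone.

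H1 genes encode the histones that bind linker DNA. Of the 6 with a promoter window, 1 had a peak there (16.7%, 3.00 to 56.4%). This interval overlaps those of H2A, H3 and H4 in EpiSCs and includes the 7.08% and 20.3% of all genes. The gene was Hist1h1a, in both lists (chr13:23763553-23763671, 119 bp, and chr13:23763529-23763689, 161 bp). At 3 others the shared peaks assigned to them lay within 1 kb beyond the 3′ end. For Hist1h1b they were 319 bp from the gene in EpiSCs (chr13:21779433-21779512, 80 bp) and 286 bp in DE (chr13:21779438-21779545, 108 bp). For Hist1h1d they were 257 bp (chr13:23556065-23556390, 326 bp wide) and 323 bp (chr13:23556131-23556332, 202 bp wide). For Hist1h1c they were 210 bp (chr13:23739742-23739890, 149 bp wide) and 252 bp (chr13:23739784-23739856, 73 bp wide). Hist1h1a had a further shared site more than 8 kb beyond it, 83 bp (chr13:23772754-23772836) and 165 bp (chr13:23772708-23772872). The peaks assigned to Hist1h1e, EpiSC-only at 5620 bp from the gene (chr13:23628179-23628294, 116 bp) and DE-only at 7613 bp (chr13:23630172-23630304, 133 bp), were different sites. The shared peaks assigned to Hist1h2be (chr13:23621129-23621712 and chr13:23621085-23621768) lay just beyond the 3′ end of Hist1h1e (chr13:23621777-23622558, minus strand). Hist1h1c had a DE-only peak of 125 bp (chr13:23737189-23737313), 1493 bp before its start, and Hist1h1t, a linker histone of the testis, had no peak.

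**Figure D4:**
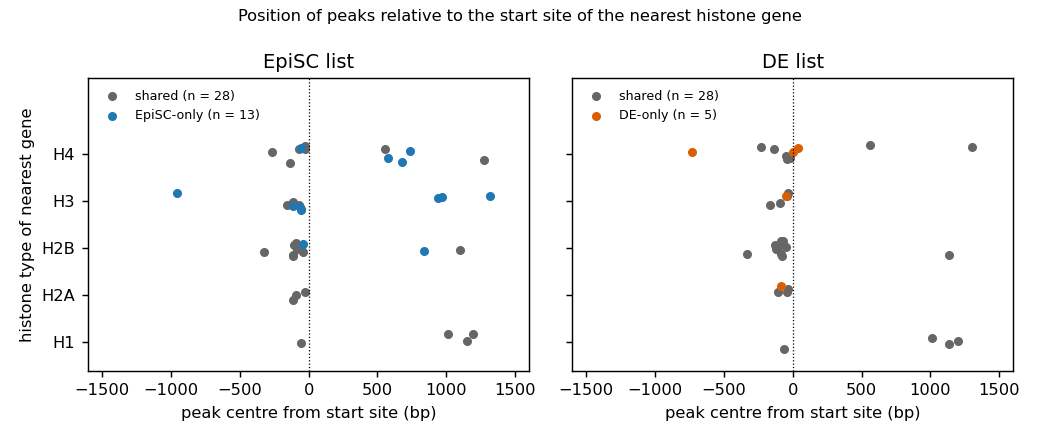
Distance in bp from the start site of the nearest histone gene to the centre of each peak, by histone type and class, for the peaks within 1500 bp of a start site in the table (points are spread vertically for sight only). Most peaks sit just before the start site, and the H1 points in both lists also form a group about 1 kb past it.

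Over all types, peak centres in promoter windows lay shortly before the start. For the 27 EpiSC peaks in the window of their own gene, the centre ranged from -326.5 to -23.5 bp from the start site, with a median of -68 bp, and all 27 lay before the start. For 26 DE peaks it ranged from -332.5 to 39 bp, with a median of -74.5 bp, and 24 lay before the start. Beyond the 3′ end of their gene lay 15 EpiSC peaks, 12 of them within 1 kb of it, and 10 DE peaks, 6 of them within 1 kb. Of these, 7 EpiSC peaks were EpiSC-only and 2 DE peaks were DE-only. Positions beyond the 3′ end were not counted over the whole lists.

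Width, the only size the lists give, differed from the rest at the shared sites. Over all 5035 overlapping pairs of peaks, the EpiSC peak was the wider in 21.4%, and the median widths were 148 bp in EpiSCs and 225 bp in DE. At histone genes the EpiSC peak was the wider in 19 of 37 pairs (51.4%, 35.9 to 66.6%), the DE peak in 17, and 1 pair was equal. Median widths of these pairs were 182 bp in EpiSCs and 165 bp in DE. Every histone type had pairs of both kinds. The 12 DE-only peaks had a median width of 94 bp (62 to 257 bp), against 129 bp for all DE-only peaks, and the 15 EpiSC-only peaks one of 123 bp (92 to 535 bp), against 125 bp. The whole lists also differ in their narrowest peak, 78 bp in EpiSCs and 62 bp in DE.

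**Figure D5:**
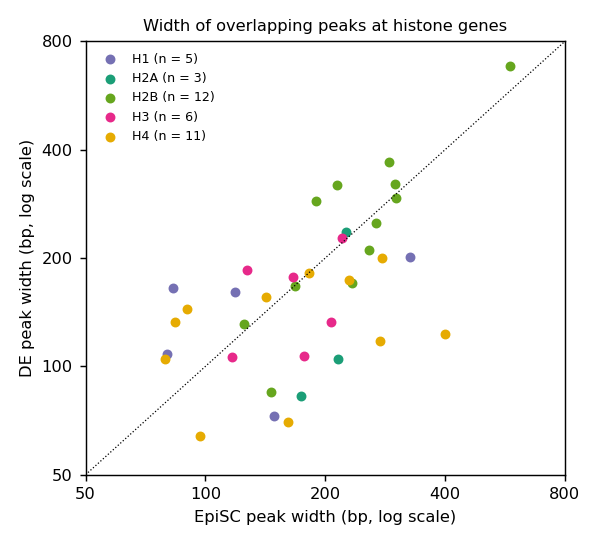
Width in bp of the EpiSC peak (x axis, log scale) and the DE peak (y axis, log scale) of each of the 37 overlapping pairs at histone genes, coloured by type, with a dotted line of equal width. Points lie on both sides of the line, with 19 below it where the EpiSC peak is wider.

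None of the 52 EpiSC and 49 DE histone gene peaks overlapped a peak of the 3 EpiSC IgG samples or of the parental HA sample. IgG peaks of DE, tagged or parental, were not analysed here, so the DE peaks were not set against an IgG of their own state. Taking 3 counts of the total as the limit that a count of 0 allows, these shares could be up to 5.77% and 6.12%. In the whole lists 0.791% of EpiSC and 0.0819% of DE peaks did so.

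Sequences before the start sites are shown for 6 genes with a promoter peak, so that the elements under the peaks can be read. They were chosen by a match to TAATCC, the site known for OTX2 and related homeodomain factors, then by peak width, with at least 1 per chromosome. Hist2h2bb is of the family, although its promoter peaks are given to Gm42743. Hist1h2be has more than 1 window, and the window beside Hist1h1e is shown. Each gives the 250 bases before the start, 5′ to 3′ on the strand of the gene, from RefSeq on GRCm38.p6. Capitals mark TAATCC, the octamer ATTTGCAT that POU factors bind in H2B promoters, the CCAAT box and the TATAAA box, on either strand.
Hist1h2ac (chr13:23683960-23684209, minus strand): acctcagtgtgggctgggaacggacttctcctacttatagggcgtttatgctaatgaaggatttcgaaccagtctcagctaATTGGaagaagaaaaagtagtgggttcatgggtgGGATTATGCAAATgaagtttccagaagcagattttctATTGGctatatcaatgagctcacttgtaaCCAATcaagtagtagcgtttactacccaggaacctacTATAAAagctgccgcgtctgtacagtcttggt
Hist4h4 (chr6:136804432-136804681, minus strand): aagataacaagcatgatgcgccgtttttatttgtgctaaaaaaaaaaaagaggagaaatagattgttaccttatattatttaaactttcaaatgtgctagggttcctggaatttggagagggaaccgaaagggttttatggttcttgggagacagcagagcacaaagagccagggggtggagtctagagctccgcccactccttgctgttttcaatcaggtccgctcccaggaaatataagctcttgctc
Hist1h4b (chr13:23756687-23756936, plus strand): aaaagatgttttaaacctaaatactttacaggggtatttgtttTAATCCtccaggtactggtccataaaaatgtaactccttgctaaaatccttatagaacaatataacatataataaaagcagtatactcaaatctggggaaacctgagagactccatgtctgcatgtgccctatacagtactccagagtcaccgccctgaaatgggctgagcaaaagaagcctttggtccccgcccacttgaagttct
Hist1h2be (chr13:23621095-23621344, minus strand): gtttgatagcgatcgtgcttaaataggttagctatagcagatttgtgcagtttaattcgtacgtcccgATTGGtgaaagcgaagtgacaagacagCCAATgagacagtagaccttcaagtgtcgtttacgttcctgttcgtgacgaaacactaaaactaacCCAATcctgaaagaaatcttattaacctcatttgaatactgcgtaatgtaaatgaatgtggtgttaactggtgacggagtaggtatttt
Hist2h2bb (chr3:96269450-96269699, plus strand): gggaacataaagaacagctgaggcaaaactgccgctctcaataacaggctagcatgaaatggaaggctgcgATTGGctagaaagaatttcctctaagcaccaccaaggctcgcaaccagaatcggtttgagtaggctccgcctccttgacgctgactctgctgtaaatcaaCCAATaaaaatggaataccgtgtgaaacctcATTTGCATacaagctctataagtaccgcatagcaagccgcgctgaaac
Hist3h2ba (chr11:58948661-58948910, plus strand): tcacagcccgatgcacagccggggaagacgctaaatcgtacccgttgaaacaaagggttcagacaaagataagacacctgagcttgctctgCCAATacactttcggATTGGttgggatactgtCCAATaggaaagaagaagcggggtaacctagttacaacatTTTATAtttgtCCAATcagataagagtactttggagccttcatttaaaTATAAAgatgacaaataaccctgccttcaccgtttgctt

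Matches to TAATCC were about as frequent at histone genes as in all windows. On either strand, 5 of 62 histone windows held one (8.06%, 3.49 to 17.5%), against 7.16% of all 27025 windows. Among the 42 histone windows with a peak 3 did, at Hist1h2ac, Hist4h4 and Hist1h4b. In Hist1h2ac the match begins at -135, counted from the start, inside the peak of both lists, and overlaps an octamer that begins at -130. In Hist4h4 it lies at base 7 after the start, beyond the bases shown and inside the EpiSC peak. In Hist1h4b it begins at -207 and lies outside the peaks.

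Other promoter elements were common in histone windows. The CCAAT box was found in 53 of 62 (85.5%, 74.7 to 92.2%), against 37.9% of all windows, and in all H1, H2A, H2B and H3 windows but only 3 of 12 H4 windows. The octamer was found in 13 (20.97%, 12.7 to 32.6%), against 1.75% of all windows, in 7 H2A and 6 H2B windows and in no other type. TATAAA was found in 35 (56.5%, 44.1 to 68.1%), against 14.2%. In the windows with a peak, 9 of 10 octamer matches, 103 of 108 CCAAT matches (95.4%), 20 of 26 TATAAA matches (76.9%) and 2 of 3 TAATCC matches lay inside a peak of either list. Peaks covered 68% of the bases of these windows. In all 5560 windows with a peak, which peaks covered to 48.7%, 77.2% of octamer, 77.7% of CCAAT, 27.8% of TATAAA and 67.9% of TAATCC matches lay inside one. Head-to-head windows overlap, so a match can be counted for both genes. CCAAT was found in 16 of the 20 histone windows without a peak (80%, 58.4 to 91.9%) and in 37 of the 42 with one (88.1%, 75 to 94.8%), and these intervals overlap. Of the windows searched at all 5560 genes with a peak in either list, 51.4% held CCAAT and 6.49% TATAAA. A match describes the letters of the window and was not tested as a binding site.

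The histone gene peaks were also placed against tRNA genes, which RNA polymerase III transcribes. With a limit of 1 kb from the edge of the peak, 1 of 52 EpiSC peaks was beside one (1.92%, 0.34 to 10.1%), against 1.06% of the EpiSC list, and 1 of 49 DE peaks (2.04%, 0.361 to 10.7%), against 0.131% of the DE list. Each share rests on 1 peak, and with a limit of 5 kb there were 3 of 52 (5.77%) and 3 of 49 (6.12%), against 1.33% and 0.255% of the whole lists. The EpiSC peak within 1 kb was the EpiSC-only site of Hist1h2bj at chr13:22049768-22049881, 804 bp from n-TSgct5. The DE peak within 1 kb was the DE-only site at the start of Hist1h4h, 571 bp from n-TMcat9. Within the chromosome 13 cluster the median gap to a tRNA gene was 44504.5 bp for EpiSC and 59982 bp for DE histone gene peaks.

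The tRNA genes between the histone blocks had peaks of their own, mainly in EpiSCs. From the first to the last histone gene of the cluster (2.22 Mb) there were 77 tRNA genes, of which 30 had an EpiSC peak within 1 kb (38.96%, 28.8 to 50.1%) and 6 a DE peak (7.79%, 3.62 to 15.98%). Of all 430 tRNA genes, 22.6% had an EpiSC peak and 13.95% a DE peak that near. Beside these tRNA genes lay 19 EpiSC peaks whose nearest gene was no histone gene, and 16 of them were EpiSC-only (84.2%, 62.4 to 94.5%). Of all 67 EpiSC peaks beside a tRNA gene 64.2% were EpiSC-only (52.2 to 74.6%), and the intervals overlap. Of the 46 histone gene peaks in the same span 14 were EpiSC-only. The corresponding DE peaks were 4, of which 3 were shared. None of these 19 and 4 peaks overlapped a peak of the EpiSC IgG samples or of the parental HA sample. Of the 16 EpiSC-only peaks, 10 overlapped the tRNA gene itself, for example, chosen after their values were seen, the peaks at n-TIaat10 (chr13:21881891-21882072), n-TSgct8 (chr13:21994014-21994243) and n-TEttc5 (chr13:23463561-23463710).

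Genes that act in histone gene expression were compared with the histone genes themselves. Of 19 such genes, 5 were nearest to an EpiSC peak and 13 to a DE peak, and 15 of their 19 DE peaks were DE-only (78.9%). This share is near the 88.3% of the whole DE list, and 16% and 52.3% of all protein-coding genes were nearest to an EpiSC and a DE peak. Npat, the activator of the histone locus body, had 2 DE-only peaks, and Slbp, which binds the stem-loop of histone mRNA, had 1. Casp8ap2 and Lsm10, both needed for histone mRNA processing, had 1 shared peak each. Hinfp, an activator of H4 genes, had 1 peak in each list at different sites.

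Replication-independent histone genes encode variants that are made outside S phase. Of 14, 6 were nearest to an EpiSC peak and 7 to a DE peak, against 16% and 52.3% of all protein-coding genes. All 6 of their EpiSC peaks were shared, at H3f3b, H2afv, H2afx, H2afy, H2afj and Cenpa, and 2 of 8 DE peaks were DE-only, at H3f3b and H2afz. In the whole lists 21.2% of EpiSC peaks were EpiSC-only and 88.3% of DE peaks DE-only.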

How the data were processed

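OTX2-HA binding was measured by CUT&RUN in 2 EpiSC and 2 DE samples, whose peaks the authors deposited as 1 pooled list of positions for each state. Per the submitters' processing notes, Bowtie2 2.3.5.1, SAMtools 1.14, Picard 2.26.10, bedtools 2.30 and MACS2 2.2.6 were used, with build mm10, and the names of the lists give a merging distance of 50 bp. The caller's threshold and control and the method behind the nearest genes are not given in the sources used here. The label of EpiSC HA replicate 2 names the DE list, which was read as a slip. Read depth is unknown. The columns of genes named down or up were not used.

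Peaks, genes and promoters were matched by position in Python 3.11.15 with pandas 2.3.3 and numpy 2.4.6, and the intervals came from scipy 1.17.1. The overlap code was checked on simulated peaks. Gene positions and promoter sequences came from RefSeq tables on GRCm38.p6, which has the coordinates of mm10. Motifs were searched in 1 window per gene. Members and lists were chosen with earlier results of these data known. The rule named the 30 genes with the widest EpiSC-only or shared peak and those with DE-only peaks alone. The remaining members were added after their values were seen. No test was made, since members were compared between 2 pooled lists, and the shares of the whole lists or of all genes are given with the main counts. The alternatives tried were the overlap, the gene assigned, the distances, the peaks left out and the length of the DE list.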

Additional observations from a re-analysis of the deposited data

How the results depend on the processing

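No paired analysis was possible because each state has a single pooled HA list, and for the same reason no replicate could be left out. Of 28 values under alternatives, 19 kept their value within 1.5 times (counts) or within their interval (shares), and 9 moved. When only the 6319 widest DE peaks were kept, 6 DE histone gene peaks remained and 88.46% of the EpiSC ones had no partner, against 69.3% of the whole EpiSC list. That alternative keeps only peaks of at least 259 bp. With peaks over a histone promoter window in place of the nearest gene, an alternative chosen after seeing the data, there were 32 peaks in each list, and 15.62% of the EpiSC ones were EpiSC-only. A limit of 200 bp, or overlap, to a tRNA gene left 0 EpiSC and 0 DE histone gene peaks beside one, and a limit of 5 kb gave 5.769% and 6.122%, 3 peaks in each list. No histone gene peak overlapped an EpiSC IgG or parental HA peak, the controls compared, so leaving those peaks out tests nothing here. The values from that alternative could not change, yet they are counted among the 19 kept. The share of DE-only histone gene peaks was between 15.62% and 25.49% in its 6 alternatives.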

Other observations

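Over the whole genome, 67 EpiSC peaks lay within 1 kb of a tRNA gene, and 43 of them were EpiSC-only (64.2%, 52.2 to 74.6%), against 21.2% of the whole EpiSC list. Of 56 DE peaks beside a tRNA gene, 32 were DE-only (57.1%, 44.1 to 69.2%), against 88.3% of the whole DE list. Of 430 tRNA genes, 97 had an EpiSC peak within 1 kb (22.6%, 18.9 to 26.7%) and 60 a DE peak (13.95%, 11 to 17.6%).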
